A study of Mus musculus with 60 samples.

Results

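Islets of mice treated to activate MYC were compared at 72 and at 32 h of treatment on 10 of the 60 arrays of the series, 6 of 72 h and 4 of 32 h. These are the arrays labelled MycON, chosen by the time in their titles, and the mice injected with exenatide and with water were pooled, with the injection kept in the model. All mice were male pIns-MYCERTAM animals on a CBA-C57BL/6 background, in which the insulin promoter drives a MYC protein fused to a modified oestrogen receptor in beta cells. The fusion protein becomes active when 4-hydroxytamoxifen binds it. MycON mice received 1 mg of 4-hydroxytamoxifen into the abdominal cavity each day, and MycOFF mice, which carry the same transgene, received peanut oil. Each mouse also received exenatide (exendin-4, an agonist of the GLP-1 receptor, 50 µg/kg, injected subcutaneously) or the water vehicle. These injections began 2 days ahead of the 4-hydroxytamoxifen. The age was 8 to 12 weeks in the characteristics and 3 months in the treatment protocol. Of the 6 MycON arrays of 72 h, 3 were from exenatide and 3 from water mice, and of the 4 of 32 h, 2 were from each. The submitters had left out 1 array from each of the MycON 32 h groups. The MycOFF islets of the same times, on 5 and 6 arrays, gave the same step without active MYC. No mice without the fusion received 4-hydroxytamoxifen, so effects of the drug and of MYC cannot be told apart, and the labels do not state the interval between the last dose and the collection of islets.

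MYC is a transcription factor that pairs with MAX and binds E-box sequences near gene starts. It raises genes of ribosome assembly, nucleotide synthesis, metabolism and entry into the cell cycle. In beta cells of this mouse line, sustained MYC activity is known to drive both proliferation and apoptosis. The comparison gives the genes that differ between 32 and 72 h in MycON islets. Whether MYC was active when these islets were collected was not tested.

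Islets had been cut by laser from frozen sections of 15 µm, and RNA was read on microarrays. Each value is the log2 distance of a probe set from the middle (median) of its 60 arrays, so levels of different genes, and the presence of beta cell markers as such, cannot be read from it. The standard deviation of the values within an array ran from 0.388 to 0.705 at 72 h and from 0.392 to 0.415 at 32 h in MycON, and from 0.284 to 0.811 in MycOFF. The 0.705 was that of the first MycON exenatide array of 72 h. A pair of other arrays was taken, after the data were seen, to stand apart from their groups. The third MycON water array of 72 h had the lowest macrophage, stromal and lysosome means of its group (-0.06, -0.53 and -0.39, against 1.88 to 3.41, 1.21 to 2.96 and 0.85 to 2.35 on the other 5). The same array had the highest DNA replication and mitosis means of its group (2.46 and 3.11). These means of the MycON array are not among the list means flagged for a closer look below. The second MycOFF exenatide array of 72 h had the highest stromal mean of its group (2.78), a mitosis mean of 1.44, and a mean of 5.45 over the only 2 neutrophil genes tested. Several results that rest on these arrays are given with and without them. The labels call the arrays biological replicates and tie none to a named animal, so p-values measure the spread between these samples. Differences below are log2 differences of 72 minus 32 h with their standard error (SE), averaged with equal weight over both injections, and a gene passed at an adjusted p under 0.05 in limma.

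From 32 to 72 h in MycON islets, more genes fell than rose. Growth genes that MYC raises were among the falls: Nolc1, a chaperone of the nucleolus, fell by 2.90 log2 units (7.45-fold), the lactate and pyruvate carrier Slc16a1 by 2.86 (7.26-fold) and Polr3g, a subunit of RNA polymerase III, by 2.56 (5.90-fold). Genes of mitosis and genes known from macrophages were among the rises, with the spindle and hyaluronan-binding protein Hmmr higher by 2.99 (7.94-fold) and the lectin receptor Clec4n by 2.84 (7.14-fold). Of 13176 genes tested, 469 passed (3.56%), 152 higher (1.15%) and 317 lower (2.41%), and 402 of them changed at least 2-fold. The median difference over all genes was 0.04, with 7268 differences above 0 and 5908 below. In bulk tissue, fewer cells of a type and less RNA per cell cannot be told apart.

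The same step in MycOFF islets passed for 1 gene (0.00759%), with 625 genes at an unadjusted p under 0.05 against 2008 in MycON. That gene was Aox1, an aldehyde oxidase, which rose by 2.15 (adjusted p = 0.00169). Its MycOFF values at 72 h ran from 1.52 to 2.67 and those at 32 h from -0.68 to 0.02, with no overlap, and in MycON the difference was 0.89 ± 0.34 (adjusted p = 0.168). The MycON values did not overlap either, with -0.03 to 2.21 at 72 h and -0.37 to -0.04 at 32 h. The difference of the MycON step of Aox1 from its MycOFF step did not pass (-1.27 ± 0.47, adjusted p = 0.277). The MycOFF count was 48 without the first MycOFF water array of 72 h, 4 without the third MycOFF exenatide array of 72 h and 0 without the third MycOFF water array of 72 h, where Aox1 did not pass. The median MycOFF step was -0.01 over the 317 genes that fell in MycON and 0.04 over the 152 that rose. These sets were chosen by the MycON step, so the medians are given as a description.

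**Figure D1:**
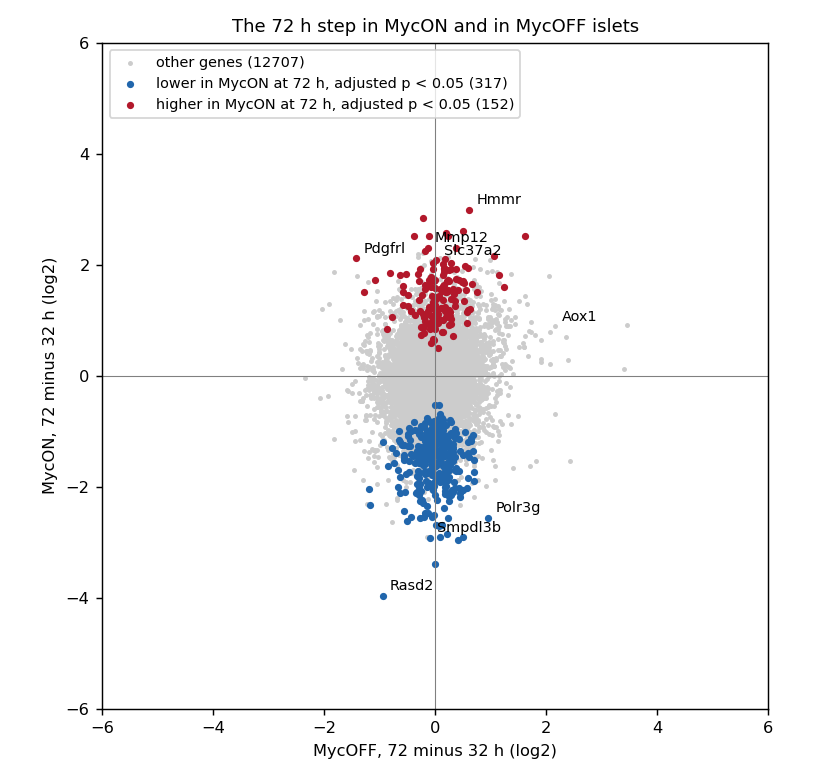
Each point is a gene, with its log2 difference of 72 minus 32 h in MycOFF islets (x axis) and in MycON islets (y axis). The 317 genes lower and the 152 higher in MycON lie along the vertical axis, with MycOFF differences centred near 0.

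The test of the MycON step against the MycOFF step passed for 70 genes (0.531%), 17 with a higher and 53 with a lower MycON step. Of the 317 fallen genes 49 were among them, and of the 152 risen genes 16. For the other genes called in MycON, a different step in MycON and MycOFF was not shown. The count was 106 without the second MycOFF exenatide array of 72 h and 174, with 63 higher and 111 lower, without both arrays that stood apart. It was 32 and 37 without the first MycON exenatide and the second MycON water array of 32 h, and 46 and 45 without the first and the third MycOFF exenatide array of 32 h.

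The genes with the smallest p in that test were mostly falls. Smpdl3b encodes a membrane-bound phosphodiesterase related to acid sphingomyelinase. Its MycON values at 72 h were -0.01, 0.51 and 0.72 (lowest, median and highest of 6), and its values at 32 h were 2.37 and 3.59 with exenatide and 3.58 and 3.78 with water. The MycOFF values, from -0.60 to 0.01, lay below all 4 arrays of MycON 32 h and the groups of MycON did not overlap. Smpdl3b fell by 2.92 ± 0.31 (adjusted p = 6.4e-07), and the difference from MycOFF was -2.82 ± 0.43 (adjusted p = 0.000477).

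Polr3g was lower on all 6 MycON arrays of 72 h (-1.32, -0.80 and 0.36) than on the 4 of 32 h (2.36 and 1.39 with exenatide, 2.00 and 1.75 with water). In MycOFF its values ran from -1.04 to 0.05 at 32 h and from -0.56 to 0.66 at 72 h. The MycON fall of 2.56 ± 0.33 (adjusted p = 8.41e-06) differed from a MycOFF difference of 0.95 that did not pass (adjusted p = 0.752), by -3.51 ± 0.46 (adjusted p = 7.39e-05). Polr3k, another subunit of the same polymerase, fell by 1.22 ± 0.36 (adjusted p = 0.0484), a call that ended on leaving out any 1 of 8 arrays and under 8 of 11 other settings.

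Dctd, a deaminase that supplies precursors of thymidine, was at 2.27, 1.53, 1.98 and 2.29 on the arrays of 32 h and between -0.50 and 0.11 at 72 h. Its fall was 2.16 ± 0.25 (adjusted p = 1.16e-06), and the MycOFF values of both times ran from -0.37 to 0.58, so that only the arrays of MycON 32 h stood apart. Fig4, a lipid phosphatase of endosomes, fell by 2.18 ± 0.27 and Yars2, the mitochondrial tyrosyl-tRNA synthetase, by 2.09 ± 0.30. Ccdc137 fell by 1.80 ± 0.22, 2500002B13Rik by 1.92 ± 0.23 and Ccbe1, a secreted protein of lymphatic growth, by 1.50 ± 0.17, with its 3 other probe sets at -0.02 to 0.04. The difference from MycOFF passed for these 6 genes and for the adenylate kinase gene Ak4, with adjusted p from 0.000199 to 0.00229. Slc37a2, a sugar phosphate carrier high in macrophages, was the only rise among the 10 smallest p (2.06 ± 0.35 above the MycOFF step, adjusted p = 0.00167).

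**Figure D2:**
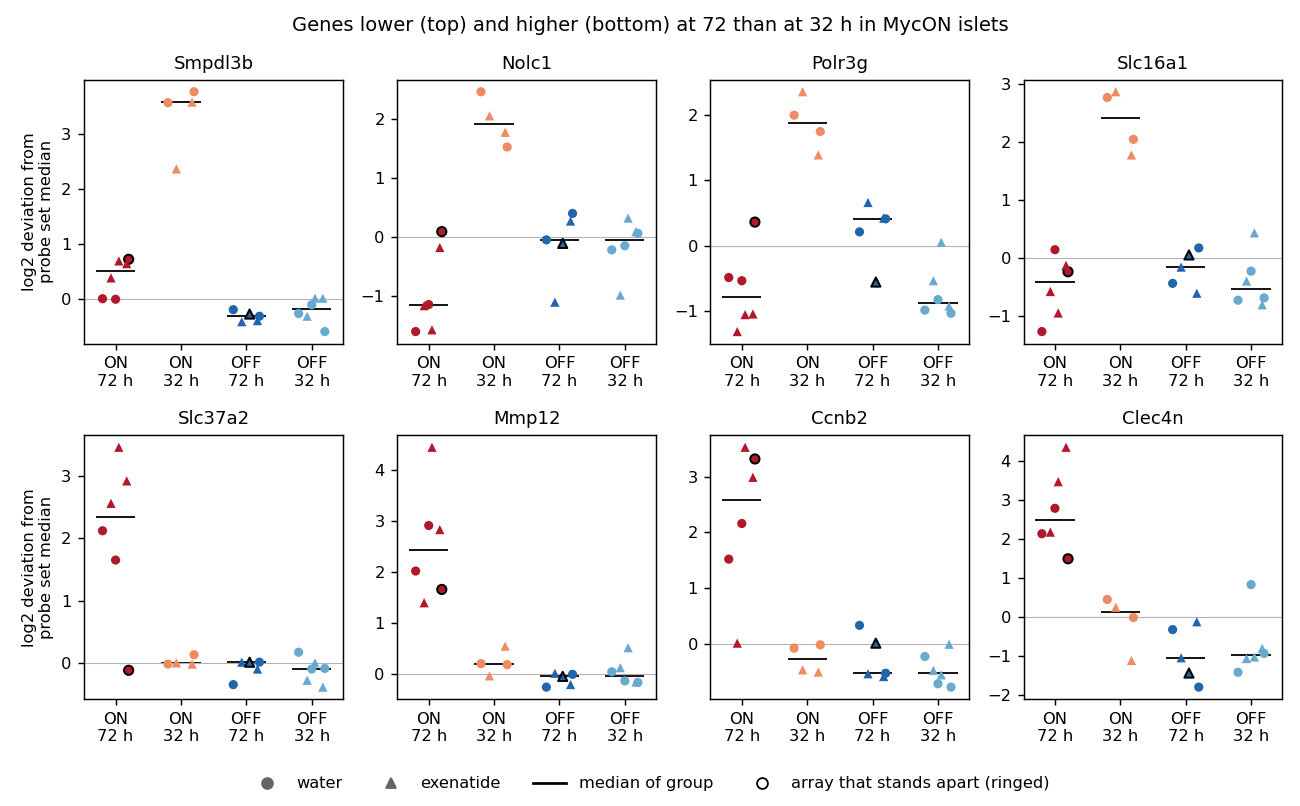
Each point is an array: log2 deviation from the probe set's median (y axis) of 8 genes in MycON and MycOFF islets at 72 and 32 h, with circles for water, triangles for exenatide, a bar at the group median and rings on the arrays that stood apart. The 4 genes in the upper row are lower on every MycON array of 72 h than on every one of 32 h, and Slc37a2 is near 0 on the ringed MycON array (-0.12) and from 1.65 to 3.46 on the other 5.

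The largest falls included carriers, receptors and signalling proteins. Rasd2, a small GTPase, fell by 3.96 ± 0.71 (15.6-fold, adjusted p = 0.000931), from 2.16, 2.39, 2.76 and 2.92 at 32 h to between -2.76 and 0.21 at 72 h. The MycOFF values of Rasd2 ran from -4.21 to 1.67, and its difference from the MycOFF step did not pass (adjusted p = 0.179). The amino acid carrier Slc6a15 fell by 3.40 ± 0.49 (adjusted p = 4.87e-05). It stood at 3.77, 2.85, 3.53 and 3.31 on the arrays of 32 h, whereas all 6 of 72 h lay between -0.20 and 0.19, within the range of the MycOFF arrays (-0.16 to 0.20) but for 1 array. The folate carrier Slc19a1 fell by 2.56 ± 0.45 (adjusted p = 0.000696). Its values were 1.64, 1.07, 2.84 and 1.79 at 32 h and from -1.35 to 0.11 at 72 h.

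Slc16a1 was at 2.87, 1.78, 2.77 and 2.05 at 32 h and at -1.26, -0.40 and 0.15 (lowest, median and highest) at 72 h. Mature beta cells are known to keep this carrier silent. Its fall passed at an adjusted p of 0.000433 and the difference from MycOFF at 0.0199, while its other probe set had a difference of 0.00. Kcnq5, a potassium channel subunit, fell by 2.70 ± 0.40, Gmip by 2.69 ± 0.40, and Tmem158 by 2.57 ± 0.37. Zmynd19 (-2.61 ± 0.39), the prostaglandin E2 receptor gene Ptger3 (-2.96 ± 0.82) and the lipid phosphatase gene Mtm1 (-2.55 ± 0.69) fell too. The calls of Ptger3 and Mtm1 ended on leaving out any 1 of 7 arrays (adjusted p up to 0.195 and 0.151).

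Probe sets of a gene differed in several of these falls. Nolc1 and Zmynd19 had other probe sets at -1.51 to -1.02 and -2.30 to -1.61. Those of Ak4 (4), Kcnq5 (2) and Tmem158 (2) lay between -0.34 and 0.12, and the other probe set of Ptger3 at 0.03. The other probe set of Rasd2 was at -1.13, those of Mtm1 at -0.74 and 0.31, and those of Slc19a1 at -1.83 and 0.01. The probe set that varied most stood for each gene.

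Genes of ribosome biogenesis were lower at 72 h as a group, while 2.41% of all genes fell. Of 37 tested, 15 fell and 0 rose, 36 had a difference below 0, 25 did not overlap between the times (4.61% of all genes lower without overlap, and 6.05% in either direction), and the median was -1.33 beside 0.04 over all genes. Their mean per array ran from 0.81 to 1.19 at 32 h and from -0.89 to -0.01 at 72 h, with no overlap, and from -0.86 to 0.42 in MycOFF, where the median difference was -0.11. The count was 9 and 10 without the second MycON water and the first MycON exenatide array of 32 h, and 4 with all 60 arrays, with a median below 0 in each. The difference from MycOFF passed for 4 members, Nolc1, Nop16, Utp4 and Nop14.

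Nolc1 was at 2.06, 1.78, 2.47 and 1.53 on the arrays of 32 h and at -1.61, -1.16 and 0.09 at 72 h, so that the times did not overlap. It fell by 2.90 ± 0.47 (adjusted p = 0.000218). Nop16, a nucleolar protein of the large subunit, fell by 2.69 ± 0.46 from 1.91, 2.03, 2.20 and 1.87, and Rrp1b, a nucleolar scaffold, was lower (-2.55 ± 0.46) than its 1.92, 2.33, 2.10 and 1.99 of 32 h. Polr1b and Polr1a, the large subunits of RNA polymerase I, fell by 2.35 ± 0.50 and 1.90 ± 0.46. Utp4 of the small subunit processome fell by 2.14 ± 0.33 and Wdr12, which matures the large subunit, by 2.09 ± 0.56. Members that did not pass included Ncl, which encodes nucleolin (-1.12 ± 0.82), Npm1 (-0.46 ± 0.45) and Fbl, the methyltransferase fibrillarin (-1.27 ± 0.94).

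Other growth lists lay below 0 with fewer calls, while 2.41% of all genes fell. Of 21 nucleotide synthesis genes 3 fell and 20 had a difference below 0 (median -1.08): Ak4 by 2.91 ± 0.43, Dctd, and the CTP synthase gene Ctps by 1.32 ± 0.30. The count was 6 without the third MycON water array of 72 h. Of 17 genes of mitochondrial chaperones and import 3 fell and all 17 were below 0 (median -0.89). These were the import factors Timm8a1 (-2.0 ± 0.35), Timm9 (-1.75 ± 0.49) and Timm23 (-0.89 ± 0.23), of which Timm9 lost its call on leaving out any 1 of 6 arrays and Timm23 any 1 of 4. The other probe sets of Timm8a1 and Timm9 were at 0.11 and -0.04. The list's count ran from 1 to 5 over the arrays left out in turn. It was 1 without the first MycON exenatide, either MycON water array of 32 h or the first MycON water array of 72 h, and 5 without the third MycON water array of 72 h. Of 11 serine and one-carbon genes all were below 0 (median -0.80) and 1 fell, Phgdh, the entry enzyme of serine synthesis, by 2.05 ± 0.37. Of 18 translation initiation genes 0 passed and 17 were below 0 (median -0.68), with the cap-binding factor Eif4e at -1.28 ± 0.45 (adjusted p = 0.113).

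Of 12 fatty acid synthesis genes 3 fell, and they are enzymes of consecutive steps: Acaca makes malonyl-CoA, Fasn builds palmitate from it and Elovl6 lengthens palmitate. Acaca fell by 1.59 ± 0.33 from 0.89, 0.93, 0.69 and 0.55 at 32 h to between -1.40 and -0.06, and its other probe set was at 0.01. Fasn fell by 1.63 ± 0.36 and Elovl6 by 2.47 ± 0.45, and neither overlapped between the times. The other 9 genes did not pass and the list's median was -0.15, with the citrate lyase gene Acly at -0.04 and the regulator Srebf1 at 0.11. The differences from MycOFF did not pass for the 3 enzymes (adjusted p = 0.0838 to 0.163).

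The fallen genes were largely genes that were higher with MYC soon after its activation. Arrays of 4 and 8 h share none with this comparison, and 1122 genes (8.52%) differed between MycON and MycOFF at those times, 676 higher (5.13%) and 446 lower (3.38%) in MycON. Of the 317 genes that fell from 32 to 72 h, 226 were among the 676, which is 71.3% of the fallen and 33.4% of the early set, and 0 were among the 446. Of the 152 that rose, 43 were among the 446 (28.3% and 9.64%) and 0 among the 676. The median MYC effect at 4 and 8 h was 0.98 over the fallen genes, above 0 in 313 of them, and -0.18 over the risen genes.

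Across the 5 times, the median of the fallen genes in MycON was 0.82 at 4 h, 0.76 at 8 h, 0.07 at 16 h, 1.08 at 32 h and -0.32 at 72 h. In MycOFF it stayed between -0.22 and -0.07. Nolc1 was likewise high at 4, 8 and 32 h, with 2.01, 1.67, -0.05, 1.96 and -0.93 over the times, and Slc16a1 was at 3.00, 2.27, 0.85, 2.37 and -0.49. The risen genes had their lowest MycON median at 32 h (-0.27) and their highest at 72 h (0.97), with 0.45 at 16 h. Ccnb2 was at -0.20, 0.48, 2.94, -0.27 and 2.25 over the times, so that 16 and 72 h were high and the others low. The values of 32 and 72 h are those that chose these sets and are given as a description.

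**Figure D3:**
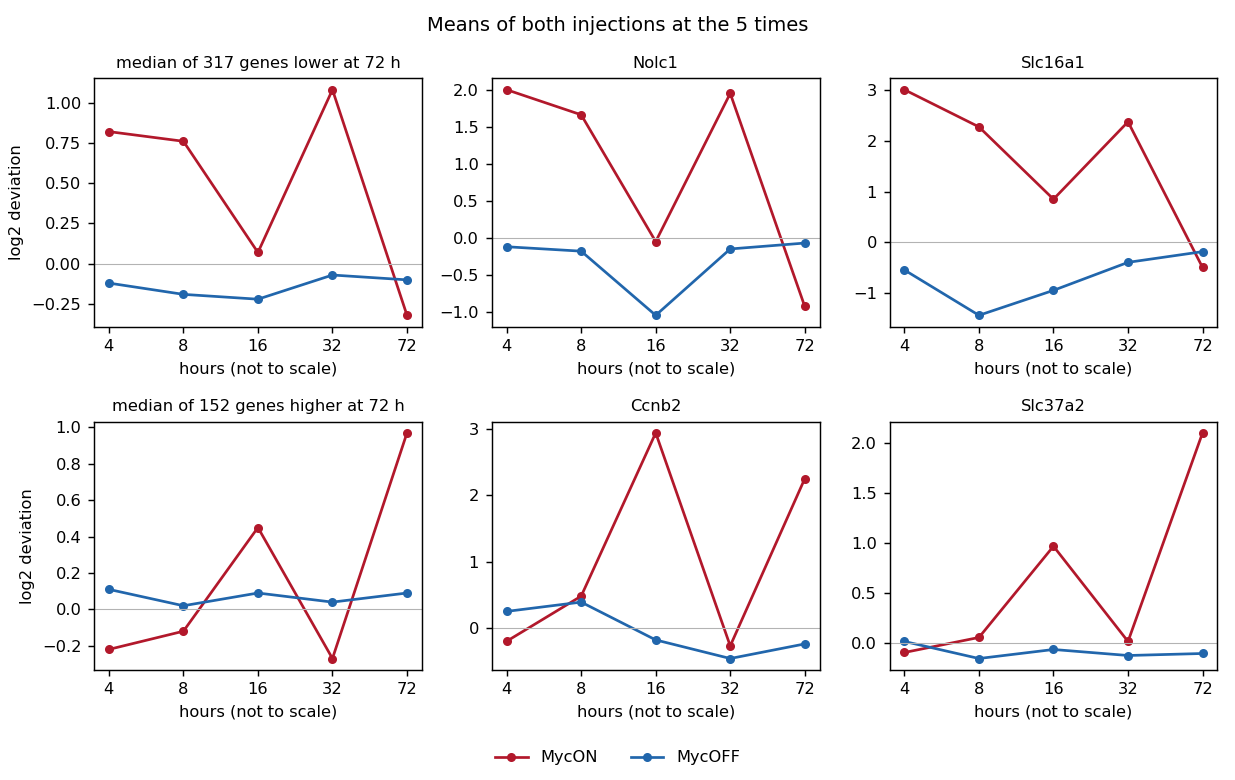
Log2 deviation (y axis) at 4, 8, 16, 32 and 72 h (x axis, equally spaced) in MycON (red) and MycOFF (blue) islets, as means of both injections for single genes and as the median over genes for the 317 that fell and the 152 that rose. In MycON the fallen genes are high at 4, 8 and 32 h and low at 16 and 72 h, and Ccnb2 and Slc37a2 are highest at 16 and 72 h.

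Sequences before the gene start are shown for falls that hold the E-box CACGTG, to which MYC with MAX binds. The letters read the same on both strands. Promoter windows from RefSeq (GRCm38.p6, 250 bases before to 50 after each start) matched 272 of the 317 fallen genes, and 44 of these genes (16.2%) held the E-box in a window. It was held by 18 of 120 matched risen genes (15.0%) and by 1195 of 10622 matched genes of all tested (11.3%). Per window, the shares were 13.4%, 13.3% and 9.51%. Of the 38 named falls, 34 had a window and 6 held the E-box before the start. The 4 stretches below belong to genes described above and run up to 60 bases to each side of the E-box, which is in capitals, 5′ to 3′ on the strand of the gene. They lie at chr4:101419453-101419554 (plus strand), chr3:104638414-104638529 (plus strand), chrX:134541841-134541920 (minus strand) and chr12:71136676-71136793 (minus strand), and the E-box begins 214, 200, 236 and 58 bases before the start.
Ak4: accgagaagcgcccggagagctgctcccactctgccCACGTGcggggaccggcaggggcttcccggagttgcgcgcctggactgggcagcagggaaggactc
Slc16a1: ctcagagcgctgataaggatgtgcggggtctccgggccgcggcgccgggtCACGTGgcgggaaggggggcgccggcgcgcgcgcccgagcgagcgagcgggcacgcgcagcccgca
Timm8a1: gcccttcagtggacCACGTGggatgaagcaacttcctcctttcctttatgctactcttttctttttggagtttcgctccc
Timm9: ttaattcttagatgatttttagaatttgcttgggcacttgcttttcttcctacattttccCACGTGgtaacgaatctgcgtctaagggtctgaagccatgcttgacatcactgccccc
The window of Smpdl3b held the letters after the start, and those of Nolc1, Polr3g and Dctd did not hold them.

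Genes of mitosis were higher at 72 h. Of 32 tested, 9 rose, beside 1.15% of all genes, and 0 fell. All 32 had a difference above 0, and the median was 1.62 beside 0.04 over all genes. The mean per array was 0.59 to 3.11 at 72 h and -0.25 to 0.06 at 32 h, with no overlap. In MycOFF the means ran from -0.72 to -0.35 at 32 h and from -0.99 to -0.20 on 4 of the 5 arrays of 72 h, with the remaining array, which stood apart, at 1.44. The difference from the MycOFF step passed for 0 members. The count of rises was 2 or 3 on leaving out any 1 of the 4 arrays of 32 h and 6 without the second or the third MycON exenatide array or the third MycON water array of 72 h. It was 2 with spread scaling and 0 with all 60 arrays. Without both arrays that stood apart it was 8, with a median of 1.20.

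Ccnb2, a cyclin of entry into mitosis, was at 0.01, 3.53 and 2.99 on the exenatide arrays of 72 h and at 1.52, 2.16 and 3.32 on the water arrays. The arrays of 32 h were at -0.47 and -0.51 with exenatide and -0.08 and -0.02 with water, so that the first exenatide array of 72 h lay close to them. It rose by 2.52 ± 0.51 (adjusted p = 0.00319) and by 2.27 without the third water array of 72 h. Hmmr was higher on all 6 arrays of 72 h (1.44, 1.98 and 3.93) than at 32 h (-0.82, 0.54, -1.09 and -1.08), a rise of 2.99 ± 0.74 (adjusted p = 0.0165), with 4 other probe sets at 0.01 to 1.22. Without the third water array of 72 h the rise of Hmmr was 2.62. In MycOFF the values of Hmmr ran from -2.44 to -0.53 on all but the array that stood apart (2.93).

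The microtubule-binding protein gene Nusap1 rose by 2.58 ± 0.59, and its other probe set was at 0.05. Without the third MycON water array of 72 h, where Nusap1 was at 4.93, the rise was 2.01. Cenpa, the histone variant of centromeres, rose by 2.61 ± 0.71 and Cenpf, a kinetochore protein, by 2.52 ± 0.71, and both calls ended on leaving out any 1 of 7 arrays. Their other probe sets were at 0.01 to 0.05 and 0.01 to 0.75. Ube2c, which serves the anaphase-promoting complex, rose by 1.91 ± 0.41 and the kinase gene Aurka by 1.54 ± 0.39. Members that did not pass included Mki67 (2.14 ± 0.86), the kinase gene Cdk1 (1.66 ± 0.63) and Top2a (1.40 ± 0.75). Cip2a, an inhibitor of the phosphatase PP2A, rose by 2.16 ± 0.56 outside the list, from values between -0.47 and 0.13 to values between 1.50 and 2.34, with its other probe set at 0.07. Its call ended on leaving out any 1 of 5 arrays (adjusted p up to 0.114) and under 3 of 11 other settings (adjusted p up to 0.189). The MycOFF step of Cip2a was 1.06 ± 0.53, with 3.38 on the MycOFF array that stood apart. The difference between the steps, 1.11 ± 0.78, did not pass (adjusted p = 0.724).

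Of 30 genes of DNA replication, which act before mitosis, 0 passed, with 16 differences above 0 and 14 below, and their median was 0.02. That median was -0.16 after quantile normalization, -0.50 after spread scaling and -0.49 without the third MycON water array of 72 h. Of these 30 genes 20 were higher with MYC at 4 and 8 h (median 1.47). The replication licensing factor Cdt1 was at -1.20 ± 0.70 (adjusted p = 0.45). Its MYC effect was 3.54 at 32 h and 2.79 at 72 h, in comparisons that share the MycON arrays of this step. The helicase subunit Mcm5 was at -0.23 ± 0.79, with MYC effects of 3.20 and 2.95. Of 15 cyclins and inhibitors 1 fell, Cdkn2a, a tumour suppressor locus, by 1.02 ± 0.30 (adjusted p = 0.0453), and its call ended on leaving out any 1 of 8 arrays.

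**Figure D4:**
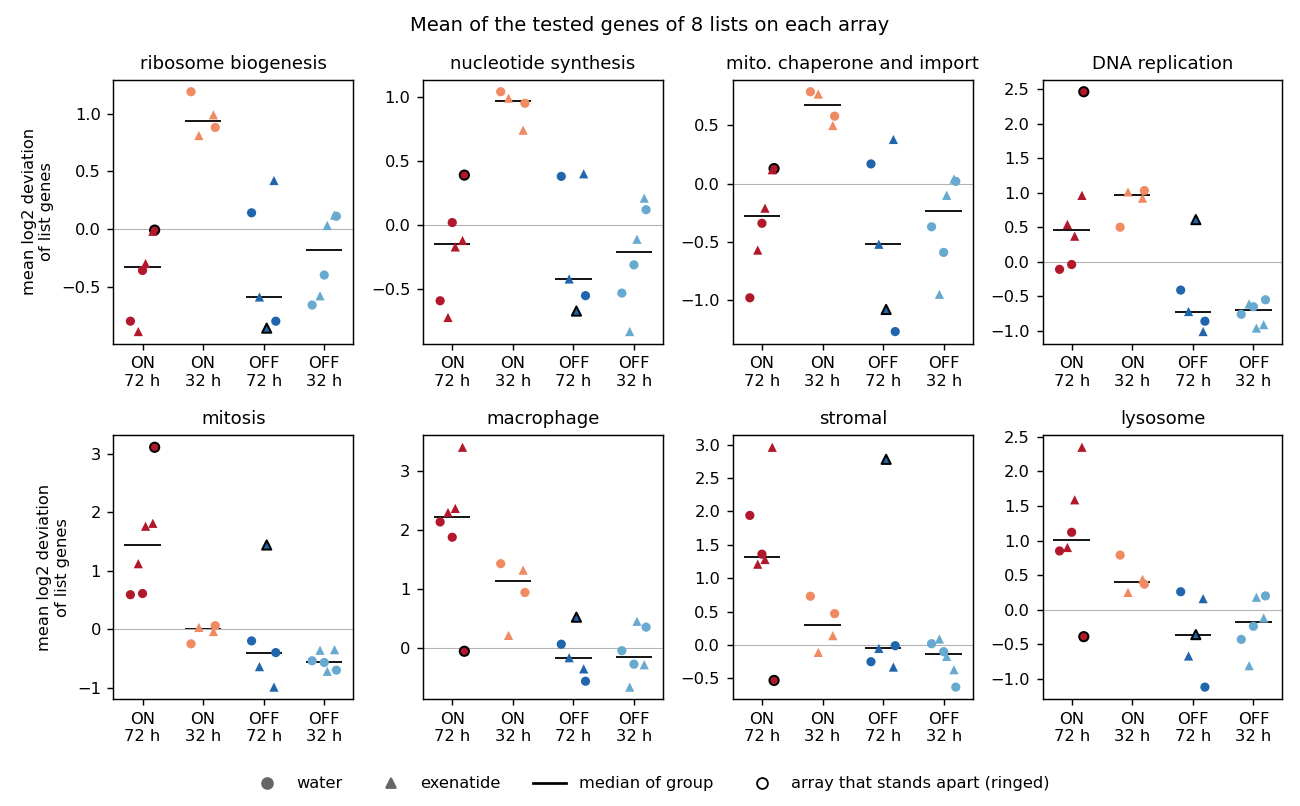
Each point is an array: the mean log2 deviation over the tested genes of a list (y axis) for 8 lists in the 4 groups, with circles for water, triangles for exenatide, a bar at the group median and rings on the arrays that stood apart. The ribosome biogenesis and mitosis means of MycON at 72 and 32 h do not overlap, while the ringed MycON array of 72 h is the highest for DNA replication and the lowest for macrophage, stromal and lysosome genes.

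Several of the largest rises were genes known from macrophages and tissue remodelling. Mmp12, an elastase of macrophages, was at 1.40, 4.44 and 2.83 with exenatide and 2.02, 2.91 and 1.66 with water at 72 h. The arrays of 32 h lay between -0.03 and 0.55 and those of MycOFF between -0.25 and 0.52, so that all 6 arrays of 72 h stood above the rest. The rise was 2.31 ± 0.37 (adjusted p = 0.000221) and differed from the MycOFF step by 2.45 ± 0.51 (adjusted p = 0.0164). Slc15a3, a peptide carrier of lysosomes, was at 1.05, 3.02 and 4.49 at 72 h (lowest, median and highest) and at 0.63, -0.04, 1.02 and -0.25 at 32 h. It rose by 2.52 ± 0.42 (adjusted p = 0.000311), with a difference from MycOFF of 2.64 ± 0.57 (adjusted p = 0.0199). The lectin receptor genes Clec4n and Clec4d rose by 2.84 ± 0.65 and 2.30 ± 0.64, and neither overlapped between the times. The other probe set of Clec4n was at 1.13. The call of Clec4d ended on leaving out any 1 of 7 arrays.

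The marker lists of these cell types were higher in median but mostly did not pass. Over all genes 1.15% rose and 2.41% fell. Of 17 macrophage markers 0 passed and 16 had a difference above 0, with a median of 1.07. Their means per array were already 0.21 to 1.43 in MycON at 32 h, against -0.67 to 0.52 in MycOFF, and 1.88 to 3.41 at 72 h on 5 of 6 arrays. Without the third MycON water array of 72 h (-0.06), 7 of the 17 rose and the median was 1.51. Cd68, a glycoprotein of phagocyte lysosomes, was at 4.18, 4.41, 5.02, 3.07 and 3.22 on the other arrays of 72 h and at 0.04 on that one, and its difference of 1.06 ± 0.62 did not pass (adjusted p = 0.456). After spread scaling the difference of Cd68 was -0.14.

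Of 18 genes of lipid handling by phagocytes, 2 rose, Slc37a2 (2.08 ± 0.25, adjusted p = 2.84e-06) and the receptor gene for dying cells Mertk (1.18 ± 0.29). In the same list Pparg, a receptor that controls lipid genes, fell by 1.58 ± 0.47 (adjusted p = 0.0496), a call that ended on leaving out any 1 of 9 arrays. The list's median was 1.02. Without the third MycON water array of 72 h, 7 rose and 1 fell, with a median of 1.33. The scavenger receptor gene Cd36 (1.49 ± 0.47, adjusted p = 0.0667) and the galectin gene Lgals3 (1.51 ± 0.93) did not pass. Without that array the difference of Cd36 was 1.89 (adjusted p = 0.00866 in limma), and Cd36 passed under 4 of 11 other settings. Its other probe sets were at 1.70 and 1.71. Trem2 was at 0.00 ± 0.19, and its other probe set at 0.40. Of 20 lysosome genes 1 rose, the proton pump subunit Atp6v0d2, by 1.10 ± 0.26 (median 0.54, its other probe set at 3.01), and 4 rose without that array.

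Of 16 stromal markers 1 rose and all 16 were above 0, with a median of 0.99. This was Lum, a matrix proteoglycan, at 2.46, 1.79, 3.02, 2.69, 1.29 and -0.07 on the arrays of 72 h and -0.47, -0.22, 0.31 and 0.86 at 32 h. It rose by 1.74 ± 0.44 (adjusted p = 0.0175), and the low value at 72 h was that of the array that stood apart. Its call ended on leaving out any 1 of 4 arrays (adjusted p up to 0.105) and under 3 of 11 other settings (adjusted p up to 0.919). The matrix protease gene Mmp14 rose by 1.70 ± 0.33 (adjusted p = 0.00183), with other probe sets at 0.03 to 0.08. Without the third MycON water array of 72 h its rise was 2.01. Mmp14 and Mmp12 were the 2 rises among 13 genes of matrix remodelling (median 0.47). Without both arrays that stood apart 6 stromal markers rose, with a median of 1.45. The part of macrophage and stromal RNA in the other rises was not tested.

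With the third MycON water array of 72 h left out, 658 genes passed, 281 higher and 377 lower, and 136 of the 152 rises and 293 of the 317 falls kept their call. Without both arrays that stood apart, 804 passed. Without other MycON arrays the count was lower: 197 and 258 without the first and second exenatide array of 32 h, 190 and 258 without the second and the third water array of 32 h, and 280 without the first water array of 72 h. Of 63 named genes past the threshold, 32 kept their call without each MycON array in turn, 25 of 38 falls and 7 of 25 rises. For 16 of the 63 the call also held in every other setting in which the gene was tested, which was 11 settings for each but Ccbe1, with 10. The 15 falls among them were Slc6a15, Smpdl3b, Ak4, Nolc1, Slc16a1, Kcnq5, Gmip, Zmynd19, Tmem158, Polr3g, Slc19a1, Dctd, Timm8a1, 2500002B13Rik and Ccbe1, and the rise was Slc15a3. Besides the calls whose limits stand beside them, those of Hmmr, Mertk and Pdgfrl ended on leaving out any 1 of 3 arrays and that of Zmat3 any 1 of 4. The calls of Clec4n, Ctps, Pgam1, Atf3, Irf1 and Rian ended without either of 2 arrays. The calls of Fasn, Hlf, Il18 and Atp6v0d2 were among those that ended on leaving out 1 array of 32 h. With all 60 arrays 41 of the 63 calls ended. In the fit of the 10 MycON arrays alone 23 ended, among them those of Ccnb2, Cenpf, Atf3, Irf1, Cxcl14 and Cd48.

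Beta cell genes mostly did not pass. Of 19 identity genes 1 rose, Pdx1, which encodes a key regulator of the beta cell state, by 1.09 ± 0.31 (adjusted p = 0.0353), and the list's median was 0.01. Pdx1 was at -0.01, -0.03, -0.67 and -0.38 at 32 h and at -0.52, 1.14 and 1.71 at 72 h, beside -0.24 to 1.56 in MycOFF. Its call ended on leaving out any 1 of 7 arrays and under 5 of 11 other settings, and its other probe set was at 0.17. The insulin gene Ins2 was at -1.54 ± 1.56 (adjusted p = 0.766), with values of -5.68 and -1.71 on 2 of the 3 water arrays of 72 h and between -0.30 and 0.33 on the other 4. The urocortin gene Ucn3, a marker of mature beta cells, was at -0.87 ± 0.76, and the glucose carrier Slc2a2 at -0.42 ± 0.38. With all 60 arrays the differences of Ins2, Ucn3 and Slc2a2 were 0.52, 0.00 and 1.22. The glucagon gene Gcg was at 0.16 ± 0.25. Of 28 secretory granule genes 0 passed (median -0.19).

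Other lists of growth and metabolism held few calls. Of 23 genes of RNA polymerase III and tRNA 2 fell, Polr3g and Polr3k (median -0.37). In the list of amino acid transporters 2 of 13 genes fell (median -0.33), the arginine carrier Slc7a1 (-1.41) and Slc16a1, which carries lactate and pyruvate rather than amino acids. Slc6a15 is not in that list. Of 13 glycolysis genes 1 fell, Pgam1 (-1.01), and the median was -0.27. Among 13 ribosomal protein, 23 oxidative phosphorylation, 15 cholesterol synthesis and 12 MYC network genes 0 passed, with medians of -0.32, -0.13, -0.51 and 0.06. Of 17 genes that beta cells keep silent 1 fell, Slc16a1, while the list's median was 0.70.

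Stress lists held single calls. Of 14 genes of the ATF4 and CHOP response 1 rose, Atf3, by 1.09 ± 0.25 (adjusted p = 0.00872), from values between -0.08 and 0.52 to values between 0.04 and 2.51. The CHOP gene Ddit3 did not pass (0.55 ± 0.33), nor did any of 22 genes of the unfolded protein response, where Xbp1 was at 0.27 ± 0.33. Of 20 genes of p53 and apoptosis 1 fell, Zmat3, a p53 target, by 1.54 ± 0.40, and Cdkn1a, another, was at -1.10 ± 0.79 (adjusted p = 0.592). Il18, a cytokine of the interleukin-1 family, rose by 1.26 ± 0.28 and the interferon-response factor Irf1 by 1.00 ± 0.24. The non-coding RNA gene Rian rose by 2.24 ± 0.51 (adjusted p = 0.00891), from -3.40, -1.25, -0.60 and -2.80 to between -0.78 and 1.97, and at 4 and 8 h it was lower in MycON than MycOFF (-2.32, adjusted p = 1.39e-05). The medians were -0.04 for the ATF4 and CHOP list, 0.04 for the unfolded protein response and 0.15 for p53 and apoptosis. Il18 and Irf1 were the only calls among 14 chemokines and cytokines (median 0.23) and 18 interferon genes (median 0.25), and Atf3 among 17 immediate early genes (median 0.52). Of 13 clock genes 1 fell, Hlf (-1.84), with a median of 0.16, and of 11 heat shock genes 0 passed (median 0.01). Sat1, which breaks down polyamines and was the only call among 7 polyamine genes (median 0.08), rose by 2.52 ± 0.66, with 1 array of 72 h at -0.49 and the others at 2.51 to 4.63. Its call ended on leaving out any 1 of 6 arrays (adjusted p up to 0.136) and under 4 of 11 other settings (adjusted p up to 0.27). Pdgfrl rose by 2.12 ± 0.53 with no overlap between the times, and its difference from MycOFF was 3.55 ± 0.73 (adjusted p = 0.0149).

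Contents of other tissues were followed by their markers. The means of the acinar list ran from -0.50 to 3.09 at 32 h and from -0.51 to 1.10 at 72 h in MycON, 0 of 17 markers passed, and their median of -0.77 became 0.09 without the third MycON water array of 32 h. Of 11 endothelial, 6 duct and 5 lymphocyte markers 0 passed, with medians of 0.08, 0.36 and 0.21. Likewise 0 passed of 8 antigen presentation genes (0.48), 10 markers of alpha, delta and PP cells (0.16), 2 neutrophil (-0.52), 4 glia and nerve (-0.31), 3 erythrocyte (0.16), 4 adipocyte (0.09) and 10 skin and muscle markers (0.01), with the median in brackets. The median of the cyclin list above was -0.13.

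The step was also taken within each injection. With water 33 genes passed (0.25%), 1 higher and 32 lower, and with exenatide 137 (1.04%), 69 higher and 68 lower. The lower share was 97.0% with water and 49.6% with exenatide. It was 82.3% and 71.9% after quantile normalization, and 100% of 3 genes and 73.5% after spread scaling. Without the third water array of 72 h, 54 genes passed with water, 21 higher and 33 lower, and that count was 21, 16 and 20 without the second water array of 32 h and the first and second of 72 h. With exenatide the count was 28 and 59 without the first and second array of 32 h and 82 without the third of 72 h.

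The difference between the injections passed for 6 genes (0.0455%), 5 with a higher step with exenatide (0.0379%), with 308 at an unadjusted p under 0.05, and for 0 to 14 under the other settings. It was 2 to 13 with arrays left out in turn: 2 and 3 without the third water array of 32 h and the second of 72 h, 3 without the first exenatide array of 32 h and 13 without the second exenatide array of 72 h. Without the third water array of 72 h, 6 genes passed, 4 higher and 2 lower, and 5 of the 6 main calls were kept. Cxcl14, a chemokine, was at 4.73, 2.91 and 4.41 with exenatide and 1.54, 1.65 and -0.10 with water at 72 h. At 32 h it was at -0.11 and 0.42 with exenatide and 1.13 and 1.72 with water. The step was 3.86 with exenatide and -0.40 with water, a difference of 4.25 (adjusted p = 0.00033). Averaged over both injections, the step of its other probe set was 0.12. Cd48, an adhesion receptor of immune cells, had steps of 2.70 and 0.06 (difference 2.64, adjusted p = 0.00247), and Myo1f, a myosin of immune cells, of 2.86 and -1.34 (adjusted p = 0.0444). Over the 17 macrophage markers the median step was 2.15 with exenatide and 0.30 with water. Their means per array were 2.30, 2.37 and 3.41 with exenatide at 72 h against 0.21 and 1.32 at 32 h. With water they were 2.14, 1.88 and, on the array that stood apart, -0.06 at 72 h, against 1.43 and 0.94 at 32 h. The part of macrophage RNA in these 3 genes was not tested. Rita1 was at 1.41 and 1.50 on the water arrays of 32 h and between -0.06 and 1.14 on the other MycON arrays (difference 2.19, adjusted p = 0.000191). Tyw1, which modifies tRNA, was high on the same 2 arrays (1.21 and 1.20), and Acp7 on the exenatide arrays of 32 h (0.93 and 0.87). Both calls (adjusted p = 0.0258) ended on leaving out any 1 of 7 arrays (adjusted p up to 0.172), that of Tyw1 under 6 of 10 other settings and that of Acp7 under 3 of 9.

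**Figure D5:**
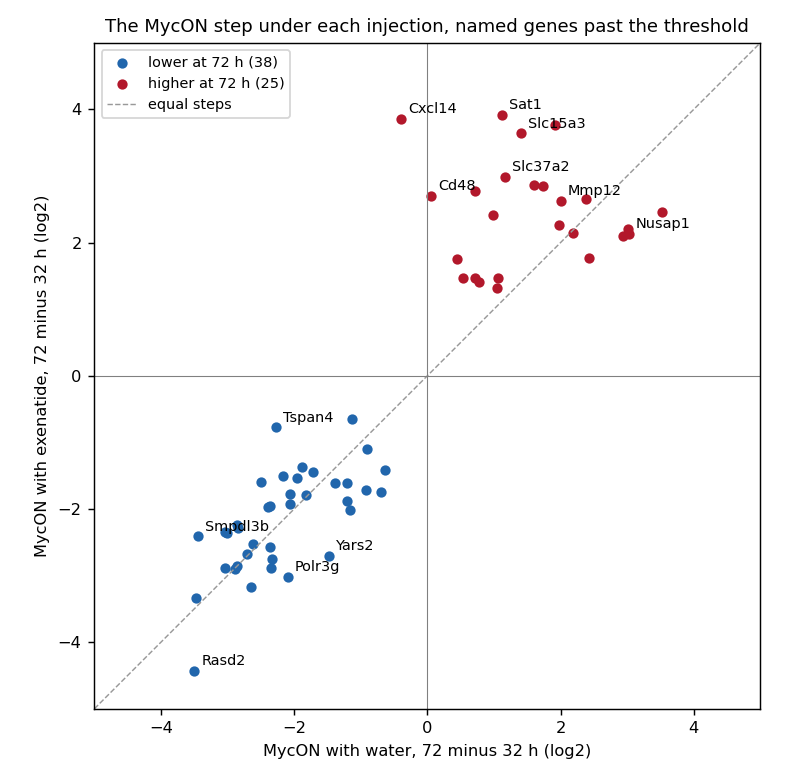
Each point is 1 of 63 named genes past the threshold, with its log2 difference of 72 minus 32 h in MycON islets with water (x axis) and with exenatide (y axis), and the dashed line marks equal steps. The 38 falls lie below 0 for both injections, while Cxcl14 is at 3.86 with exenatide and -0.40 with water.

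Genes named for this comparison but without a test here were Ins1, Mafa and Spp1, which had no probe set assigned to them alone, and Myc and Gpnmb. The Myc probe set varied too little to enter the test, with MycON values from -0.10 to 0.25, and no source says whether it reads the transgene. The better varying probe set of Gpnmb, a protein of lipid-laden phagocytes, was at 0.59 to 3.49 at 72 h and -0.04 to 0.83 at 32 h in MycON and at -0.16 to 0.44 in MycOFF.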

How the data were processed

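Islet RNA was measured on 60 microarrays. The values deposited by the authors are on a log2 scale and cover 45101 probe sets. MAS5 and GCRMA appear in the submitters' processing notes, without their role. The log base was inferred from the range (-12.3 to 12.8). Every probe set had a median of 0 over the 60 arrays (100%, tolerance 1e-04), so absolute levels are lost and fold changes rest on the log2 scale. The submitters left out 8 arrays for poor reproducibility. The 52 others entered 1 limma model with 20 group means (limma 3.58.1, R 4.3.3; 32 residual and 2.75 prior degrees of freedom), without further scaling. Each step is the mean of both injections, which keeps the injection in the model.

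A planned filter on mean level could not be computed from centred values. Probe sets with an interquartile range at or above the 40th percentile (0.101 log2 units) were kept, and the widest stood for its gene. Symbols came from the array annotation (34945 probe sets with 1 symbol, 932 with several, 9160 with none, 64 controls), of which 34741 matched the RefSeq table of GRCm38.p6, used for names. Of 18193 named genes, 13176 were tested. The threshold was 0.05 for limma p-values adjusted by Benjamini-Hochberg.

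Of 44 gene lists (823 entries, 669 tested), counts and medians are given with no test of the list. Members and lists were chosen with earlier results of these data known. Genes were named by rule: the 15 largest rises and 15 largest falls past the threshold with the same sign under both injections, up to 3 members past it per list, the 10 smallest p of the step difference, the 5 smallest p of the MycOFF step and of the exenatide-minus-water difference, and 31 fixed genes. Further list members, Myo1f and the genes of 1 list in full were named after their values were seen. On simulated data with the same design (13176 genes), the MycON comparison recovered 37.3%, 83.6% and 97% of genes changed by 1, 2 and 3 log2 units, with 10 false calls. The simulated noise was normal and independent between genes and arrays. It lacked the shifts of whole gene lists seen on single arrays, so these rates may not hold for the data. The number of arrays limits the precision. Alternatives were all 60 arrays, fewer arrays in the fit, quantile and spread scaling, other filters, the mean over probe sets, array weights, a replicate block and each array left out. Leaving out both arrays that stood apart was chosen after seeing the data. Figures were drawn with matplotlib 3.10.9.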

Additional observations from a re-analysis of the deposited data

Results flagged for a closer look

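On 5 of 80 group means of gene lists, 1 array lay far from the rest of its group, where chance gives about 1 in 20. In MycON water replicate 1 of 72 h, amino acid transporters were at -0.62 (next array -0.22) and ribosomal proteins at -0.95 (next -0.26). In MycON water replicate 3 of 72 h, genes of lipid handling by phagocytes were at 0.04 (next 1.34). In MycON exenatide replicate 3 of 72 h, antigen presentation genes were at 1.54 (next 0.53). In MycON water replicate 2 of 32 h, chemokines and cytokines were at 0.13 (next 0.40).

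The step from 32 to 72 h differed between MycON and MycOFF islets most clearly (smallest adjusted p in limma) for Polr3g (-3.51), Dctd (-2.40), Fig4 (-2.63), Smpdl3b (-2.82), 2500002B13Rik (-2.07), Ccbe1 (-1.40), Slc37a2 (2.06), Ccdc137 (-1.80), Yars2 (-2.40) and Ak4 (-3.41).

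The MycON step differed between exenatide and water for Rita1 (2.19), Cxcl14 (4.25), Cd48 (2.64), Tyw1 (1.58), Acp7 (-1.31) and Myo1f (4.21), as the step with exenatide minus the step with water. The calls of Tyw1 and Acp7 (adjusted p = 0.0258 in limma) each ended on leaving out any 1 of 7 arrays, with adjusted p up to 0.172.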

How the results depend on the processing

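With all 60 arrays, 87 genes passed for the MycON step, 0 for MycOFF, 10 for their difference, 5 with water, 21 with exenatide, 0 for exenatide minus water and 453 for the MYC effect at 4 and 8 h. With only the 21 arrays of 32 and 72 h the counts were 304, 0, 37, 39, 78 and 0 for the first 6 of these. With only the 10 MycON arrays 370 passed for the step, 53 higher and 317 lower, beside 152 and 317 in the main fit. Of the 469 main calls 248 were kept there. The same 10 arrays gave 17 with water, 2 with exenatide and 0 for exenatide minus water. Quantile normalization gave 782, 2, 271, 113, 192, 3 and 1738, and spread scaling 584, 0, 39, 3, 83, 1 and 2108. Without the filter 11 genes passed for exenatide minus water. With the stricter filter 16, 91 and 1 passed with water, with exenatide and for exenatide minus water. The mean over probe sets gave 701, 1, 149, 82 and 234 for the first 5, and array weights 1356, 1, 271, 332, 513, 14 and 1967. The lower share of the step difference was 75.7%, and 89.7% after spread scaling. Without both arrays that stood apart, 804 passed for the MycON step and 174 for the difference. Leaving out each array gave 190 to 658, 0 to 48, 32 to 106, 16 to 54, 28 to 190 and 2 to 13 genes for the first 6.

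The replicate numbers pair no samples by label. Same-numbered samples correlated in their deviations between -0.22 and 0.19 (12 pairs, 2 over 0.1), and the replicate block gave 498, 1, 77, 26, 141, 6 and 1121 genes.

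Reversed signs occurred for genes that did not pass: with all 60 arrays Ins2 (0.52), Ucn3 (0.00) and Slc2a2 (1.22); without MycON water replicate 3 of 32 h Ccnd1 (-0.35) and Mcm5 (0.19); Mcm5 also with the mean over probe sets (0.06) and without MycON water replicate 2 of 72 h (0.10); Cd68 with spread scaling (-0.14). Trem2, at 0.00, took values of 0.11, 0.08, 0.08, 0.03 and 0.00 without exenatide replicate 2 of 32 h, exenatide replicates 2 and 3 of 72 h, water replicate 3 of 32 h and water replicate 3 of 72 h, and 0.00 without both arrays that stood apart. Over the arrays left out in turn Ccnd1 ran from -0.35 to 0.89, Mcm5 from -0.64 to 0.19 and Trem2 from -0.16 to 0.11. Over named genes and settings, the MycON step lost the threshold 241 times and gained it 8 times. The causes were not tested.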

Other observations

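Families of genes outside the fixed lists were read by symbol, chosen after the results were seen and given as counts. Over all 13176 genes 1.15% rose and 2.41% fell, and 7268 differences were above and 5908 below 0. Of 75 genes of the mitochondrial ribosome, 65 had a MycON difference below 0 (median -0.46, beside 0.04 over all genes and -0.02 in MycOFF) and 3 fell, Mrps6 by 1.23, Mrps26 by 1.16 and Mrps30 by 1.12. Of 18 nucleoporins 16 were below 0 (median -0.63) and 0 passed, though 7 were higher with MYC at 4 and 8 h. Of 9 RNA exosome subunits 8 were below 0 (median -0.93), with Exosc1 lower by 2.13, and all 8 pseudouridine synthases were below 0 (median -0.80), with Pus7l lower by 2.23. RNA polymerase II subunits were below 0 in 10 of 11 (median -0.54) and 0 passed.

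Of 19 centromere proteins 5 rose: Cenpa and Cenpf, with Cenpw (1.92), Cenpp (1.84) and Cenpj (1.12). Of 28 kinesins 0 passed (median 0.15). Of 32 collagen genes 30 were above 0 (median 0.28) and 1 rose, Col4a1 of basement membranes, by 1.02. Of 216 solute carriers 5 rose and 10 fell, beside 1.15% and 2.41% of all genes. Besides those described, Slc2a6 (-2.14), the glucose-6-phosphate carrier Slc37a4 (-2.01) and the zinc carrier Slc39a10 (-1.96) fell, and the glutamine carrier Slc38a5 (1.93) rose. Of 18 proteasome subunits 0 passed (median -0.07).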
